A study of Mus musculus with 9 samples.

Results

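Transcripts of oocytes from stressed mice without treatment were compared here with those of control mice and of stressed mice given an herbal recipe, with the latter pair of groups pooled. The comparison sets 3 stress libraries against 6 others, which are all 9 libraries of the study, and it covers all 24736 genes listed, of which 13890 had enough counts to be tested. It asks which transcripts stand apart in untreated stress. All mice were ICR females, an outbred strain, labelled as 4 to 5 weeks of age, without a statement of whether this is the age at the start or at collection. The control group received no stress. The stress group was exposed to 1 stressor a day (tail pinch, cold swim, loss of water or food, wet bedding, continuous light or restraint), as a model of chronic unpredictable mild stress (CUMS). Mice of the KYZY group had the same stressors for 6 weeks, stated to be as in the stress group, and then 0.1 ml a day of the Kai Yu Zhong Yu (KYZY) decoction by gavage for 4 weeks. No group was stressed and then given a gavage without the recipe, so the recipe, the gavage and the 4 weeks after the stressors cannot be told apart. Ovulation was induced in every mouse with PMSG (7.5 IU) and then HCG (7.5 IU). Metaphase II oocytes were taken 16 hours after HCG, freed of cumulus cells with hyaluronidase, and sequenced as 15 oocytes of 1 mouse per library.

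A metaphase II oocyte is arrested in meiosis and makes almost no new RNA. Its transcripts were stored during growth, and their levels reflect that store and its decay, until the embryo's own genome is switched on. The oocyte takes up pyruvate from the cumulus cells around it and oxidises it in the mitochondria, where pyruvate dehydrogenase makes acetyl-CoA for the tricarboxylic acid cycle. Chronic stress raises circulating glucocorticoids, which act through the receptor Nr3c1.

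Levels are given as CPM, each gene's share of its library's deposited counts, with library totals scaled by edgeR's TMM method (a trimmed mean of log ratios). Total counts were 75395961 to 106990821 in the stress libraries and 46324094 to 82214112 in the others (exact permutation test, 2-sided, p = 0.095). Genes above 0 numbered 14121 to 15020 in stress and 13257 to 15802 in the others (exact permutation p = 0.857). All 22 oocyte markers were present in every library. Of 34 cumulus and granulosa cell markers, 3 were at 0 in control 3 and in KYZY 3, 5 were at 0 in KYZY 2 and 6 in stress 3, while the rest of the libraries had 12 to 23 at 0. The level of the 26 markers tested, as mean log2(CPM + 1), was 0.982, 1.29 and 2.19 in stress 1, 2 and 3, 1.00, 1.27 and 2.34 in control 1, 2 and 3, and 1.27, 3.01 and 2.97 in KYZY 1, 2 and 3. Control 3, stress 3, KYZY 2 and KYZY 3 were therefore the 4 libraries of highest cumulus level, 1 of 3 in stress and 3 of 6 among the others. The same 4 had the positive values on the first principal component, which held 46.8% of the variance, but stress 3 lay midway. Control 3, KYZY 2 and KYZY 3 were at 84.8, 96.4 and 115, stress 3 was at 25.9, and the other 5 ran from -91.1 to -33.6. The KYZY libraries carry another sequencing description in the labels than the control and stress libraries, so the value of stress against control, which lies within 1 description, is given beside the genes described most fully and as a range over all 28 genes described first.

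No gene passed the test between stress and the 6 others: edgeR's quasi-likelihood test with Benjamini-Hochberg adjustment called 0 of 13890 genes (0%), with a smallest adjusted p of 0.736. At an unadjusted p under 0.05 there were 489 genes, 175 higher (1.26%) and 314 lower (2.26%) in stress. DESeq2, another count test, called 33 of 17802 genes (0.185%), 8 higher and 25 lower. Of those 33, 10 had been dropped by the filter on low counts, among them the epithelial keratin Krt7 and the stromal genes Lum and Cxcl12. In all, 11 of the 33 were at 0 in at least 4 libraries. All 10 dropped genes were lower in stress but also at 0 in control 1 and KYZY 1. Lum and Cxcl12 were above 0 only in control 3 and KYZY 3, and Krt7 only in these and KYZY 2. Such calls rest on a few of the other libraries. In edgeR with 1 mean per group, stress against control, stress against KYZY and KYZY against control gave 0 called genes each, with 373, 553 and 380 genes at an unadjusted p under 0.05. DESeq2 called 22, 12 and 4 in the same order. With the replicate number as a block, and only these 6 libraries of control and stress, edgeR called 1 gene, Mettl7a1. That fit was not planned, and its pairing of libraries was inferred from these same data. The median log2 fold change over all genes tested was -0.03 in stress against the 6 others, and the median standard error was 0.34. Differences below are therefore described by the values of each library, and none is a call of the main test.

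A gene was set apart where its 3 stress libraries lay wholly above or wholly below all 6 others. This held for 135 genes above (0.972% of those tested) and 140 below (1.01%). With 84 ways to choose 3 of 9 libraries, a random order would set apart 1 gene in 84 on each side. Neither share was above that, so these counts alone show no excess over a random order. With a mean of at least 1 CPM over the 9 libraries there were 108 above and 87 below, 101 and 84 of them with symbols that are not predicted names. The genes described next are the 14 of smallest p on each side among these, of which DESeq2 called 8 of the lower and 4 of the higher. Their direction follows from that choice and adds no support. The DESeq2 calls come from the same libraries by which the genes were chosen, so they add none either. Where the 6 others ended, the gap was small in many of them: Gal3st2c, a sulfotransferase gene, had its lowest stress library at 7.36 CPM and its highest other library at 7.34, while Chd2 had its highest stress library at 1.26 CPM and its lowest other library at 2.79. For the 14 lower genes the log2 fold change of stress against control ran from -2.31 to -0.66 and that against KYZY from -2.25 to -0.67. For the 14 higher genes these were 0.52 to 1.22 and 0.49 to 1.86. The stress libraries enter both contrasts. KYZY and control libraries overlapped in 12 of the 14 lower and 13 of the 14 higher genes, against 92.8% of all genes tested.

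**Figure D1:**
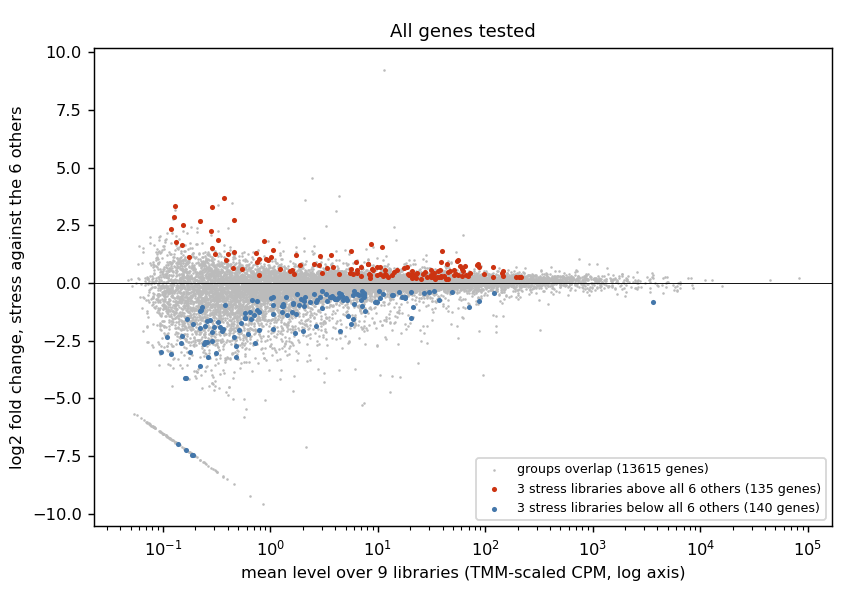
Log2 fold change of stress against the 6 other libraries (y) by mean level over 9 libraries in TMM-scaled CPM (x, log axis), 1 point per gene tested. The 135 genes with stress above all others are red and the 140 below are blue; the line of points at the lower left holds genes at 0 in all 3 stress libraries, whose fitted value depends on the prior count.

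Pdha1 and Ogdh, which encode the E1 alpha subunit of pyruvate dehydrogenase and the E1 enzyme of the related 2-oxoglutarate dehydrogenase, stood on opposite sides. Pdha1 (chromosome X, 160122219 to 160138430, GRCm38) stood at 44.3, 34.6 and 45.5 CPM in stress 1, 2 and 3, at 98.2, 79.4 and 67.8 in control 1, 2 and 3, and at 85.1, 95.6 and 90.3 in KYZY 1, 2 and 3. All 3 stress libraries lay below the lowest of the others, control 3, and control and KYZY overlapped. The mean was 41.5 ± 5.99 CPM in stress (SD, n = 3) and 86.1 ± 11.3 in the others (SD, n = 6), and the log2 fold change was -1.05 (SE 0.18) (edgeR adjusted p = 0.736, from 9.99e-05 to 1.00 over 20 alternatives). It was -0.98 against control, -1.12 against KYZY, and 0.14 with an SE of 0.20 for KYZY against control. The other core subunits of the complex overlapped between the groups. Pdhb, the E1 beta partner of Pdha1, had a mean of 74.4 ± 3.16 CPM in stress and 63.4 ± 12.3 in the others. Dlat, the E2 acetyltransferase, was at 22.7 ± 1.75 and 22.7 ± 2.68 CPM, and Dld, the E3 dehydrogenase, at 38.7 ± 15.02 and 42.0 ± 6.51 CPM. The E3-binding protein gene Pdhx was at 316 ± 42.5 and 284 ± 75.0 CPM. Over the 14 genes of the complex, its kinases and its phosphatases that were tested, 11 were higher and 3 lower, with a median of 0.13 (-0.02 without the 4 libraries of highest cumulus level, and -0.03 in stress against control). Pdha1 was the lowest of them.

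Ogdh, whose enzyme belongs to the tricarboxylic acid cycle (chromosome 11, 6291597 to 6359094), stood at 80.9, 77.8 and 78.1 CPM in stress 1, 2 and 3, at 53.9, 55.0 and 37.5 in control 1, 2 and 3, and at 58.1, 44.4 and 37.6 in KYZY 1, 2 and 3. The stress libraries lay within 77.8 to 80.9 CPM, above KYZY 1, the highest of the others. The log2 fold change was 0.73 with an SE of 0.18, 0.69 against control and 0.76 against KYZY. It was the 1 gene of 24 tricarboxylic acid cycle genes set apart, and the list's median was -0.04.

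The promoter sequences of Pdha1 and Ogdh, the pair on opposite sides, are shown with those of Wfs1, the higher gene of smallest p, and Car9, another metabolic gene below the others. Each is the 250 bases before the gene's start on its own strand, from RefSeq GRCm38.p6, 5′ to 3′.
Pdha1 (- strand, chrX:160138431-160138680): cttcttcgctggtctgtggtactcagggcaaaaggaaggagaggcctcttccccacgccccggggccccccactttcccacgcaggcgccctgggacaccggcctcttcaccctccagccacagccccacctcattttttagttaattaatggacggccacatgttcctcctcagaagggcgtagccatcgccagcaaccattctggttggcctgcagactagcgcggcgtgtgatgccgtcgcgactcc
Ogdh (+ strand, chr11:6291347-6291596): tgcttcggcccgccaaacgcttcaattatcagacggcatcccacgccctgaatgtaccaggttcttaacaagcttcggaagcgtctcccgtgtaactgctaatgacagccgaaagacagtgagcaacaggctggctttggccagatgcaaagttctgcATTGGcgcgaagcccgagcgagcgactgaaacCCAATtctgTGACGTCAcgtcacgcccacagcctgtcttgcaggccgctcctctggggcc
Wfs1 (- strand, chr5:36988983-36989232): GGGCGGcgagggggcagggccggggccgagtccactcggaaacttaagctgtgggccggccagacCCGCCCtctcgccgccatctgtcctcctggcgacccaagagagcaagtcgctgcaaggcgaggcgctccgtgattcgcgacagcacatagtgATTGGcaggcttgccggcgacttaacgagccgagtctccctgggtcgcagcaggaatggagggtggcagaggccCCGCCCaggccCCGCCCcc
Car9 (+ strand, chr4:43506776-43507025): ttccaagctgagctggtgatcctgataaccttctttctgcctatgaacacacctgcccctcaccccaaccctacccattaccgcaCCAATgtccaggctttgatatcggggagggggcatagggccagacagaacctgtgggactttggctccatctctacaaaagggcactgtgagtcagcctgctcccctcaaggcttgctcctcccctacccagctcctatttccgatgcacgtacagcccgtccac
Capitals mark matches to 6 motifs searched on both strands, none of which contains another. A half-site bound by the glucocorticoid receptor was searched as AGAACA, and the E-box as CACGTG. The response element of cyclic AMP was searched as TGACGTCA, and the motif known as the CCAAT box by its letters. The motif of the Sp1 family was searched as GGGCGG, and the core promoter motif of the TATA-binding protein as TATAAA. Ogdh held the cyclic AMP response element and the CCAAT box on both strands, Wfs1 held GGGCGG and a CCAAT box, and Car9 held a CCAAT box. The stretch of Pdha1 held no match. Promoter entries were matched for 24 of the 28 genes, and for 10804 of the genes tested. For Zc3h14, Adam8, Pgm2l1, Scml2 and Lipo3 the stretch lies wholly inside the annotated gene span, and these genes are kept in the counts. AGAACA was in 2 of 12 lower and 1 of 12 higher genes, and in 10.9% of all tested. CCAAT was in 4 of 12 on each side and in 36.6% of all, and TGACGTCA in 1 of 12 on each side and in 2.69% of all. GGGCGG was in 4 lower and 5 higher genes, against 56.9% of all. CACGTG was in 2 lower and 0 higher genes against 8.44%, and TATAAA in 0 lower and 2 higher against 6.88%. Over the 109 genes above with an entry, 13.8% held AGAACA, and over the 115 below, 12.2%. A match describes letters only, and no match says nothing about a factor.

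Chd2 and Zc3h14 were among the lower genes. Chd2, a chromatin remodeller of the chromodomain helicase family (chromosome 7, 73426652 to 73541746), stood at 1.26, 1.07 and 0.574 CPM in stress 1, 2 and 3, at 2.86, 3.74 and 3.39 in control 1, 2 and 3, and at 4.26, 3.86 and 2.79 in KYZY 1, 2 and 3. Its log2 fold change was -1.84 with an SE of 0.32 (edgeR adjusted p = 0.736, from 4.33e-06 to 1.00 over 20 alternatives), -1.78 against control and -1.90 against KYZY. The gap between stress and the others was the widest of the 28 genes as a ratio, 2.21. Zc3h14, which encodes a zinc finger protein that binds poly(A) tails (chromosome 12, 98742017 to 98787774), stood at 11.4, 13.6 and 12.8 CPM in stress 1, 2 and 3, at 19.1, 24.7 and 30.0 in control 1, 2 and 3, and at 19.7, 27.6 and 32.9 in KYZY 1, 2 and 3. Here too no stress library reached control 1, the lowest of the others, and the log2 fold change was -1.03 with an SE of 0.21, -0.96 against control and -1.09 against KYZY. Egr1, an immediate early transcription factor, was at 6.57, 7.95 and 5.15 CPM in stress and 9.46 to 15.9 in the others. The lists these genes belong to lay near the median of all genes. Of 78 chromatin regulators 51 were higher and 27 lower, with a median of 0.08 and a mean of -0.03, and Chd2 was the 1 member set apart. Of 52 genes for maternal mRNA storage, translation and decay 32 were higher, with a median of 0.06 and a mean of -0.0026, and Zc3h14 was the 1 set apart. The median of that list was -0.04 without stress 3.

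Birc2, Rmnd1 and Car9 were further genes on the lower side. Birc2, an inhibitor of apoptosis that ubiquitinates its targets (chromosome 9, 7818226 to 7837131), stood at 1.80, 1.71 and 3.83 CPM in stress 1, 2 and 3, at 6.12, 7.14 and 4.596 in control 1, 2 and 3, and at 7.25, 8.78 and 5.90 in KYZY 1, 2 and 3. Stress 3 was the nearest to the others, and the log2 fold change was -1.44 with an SE of 0.32, -1.28 against control and -1.58 against KYZY. Rmnd1, needed for translation in mitochondria, stood at 0.343, 0.218 and 0.512 CPM in stress 1, 2 and 3, at 1.87, 2.15 and 1.31 in control 1, 2 and 3, and at 0.932, 0.807 and 1.45 in KYZY 1, 2 and 3. These levels are low, and the log2 difference of -1.99 had an SE of 0.48. It was -2.31 against control and -1.57 against KYZY. Car9, a carbonic anhydrase of the cell surface, was at 24.2, 26.1 and 26.9 CPM in stress and 37.5 to 51.8 in the others. The stress libraries of Car9 were close to each other, with a mean of 25.7 ± 1.39 CPM against 42.5 ± 5.70 in the others and a log2 fold change of -0.72 (SE 0.16), or -0.67 against control.

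The remaining lower genes had other roles. Plekhb1, a membrane protein with a pleckstrin homology domain, was at 1.56, 1.79 and 3.12 CPM in stress and 3.95 to 11.5 in the others. Cst3, the secreted protease inhibitor cystatin C, was at 0.932, 2.18 and 1.09 CPM in stress and 2.51 to 10.5 in the others. Its high libraries were control 3, KYZY 2 and KYZY 3, at 8.36, 7.08 and 10.5 CPM, also the highest in cumulus markers. Control 1, control 2 and KYZY 1 were at 3.47, 4.20 and 2.51 CPM. Zc3h14 was likewise highest in control 3, KYZY 2 and KYZY 3. Adam8, a metalloprotease, was at 4.13, 3.75 and 3.65 CPM in stress, and its 3 KYZY libraries, 6.65, 9.97 and 8.04, all lay above its 3 control libraries, 5.39, 6.13 and 6.64. In Rufy2, an endosomal adaptor gene, it was the reverse: KYZY was at 6.65, 7.05 and 6.997 CPM, between stress at 5.60, 3.71 and 3.66 and control at 11.4, 11.4 and 7.86. Slc15a5, a predicted peptide transporter, was at 1.08, 1.90 and 4.58 CPM in stress and 5.31 to 10.1 in the others, so that stress 3 stood close to the others. Fam174b was at 0.110, 0.349 and 1.06 and 1.85 to 3.09 CPM, and Pgm2l1, a glucose-1,6-bisphosphate synthase, at 3.10, 2.83 and 3.94 and 4.86 to 5.79 CPM.

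**Figure D2:**
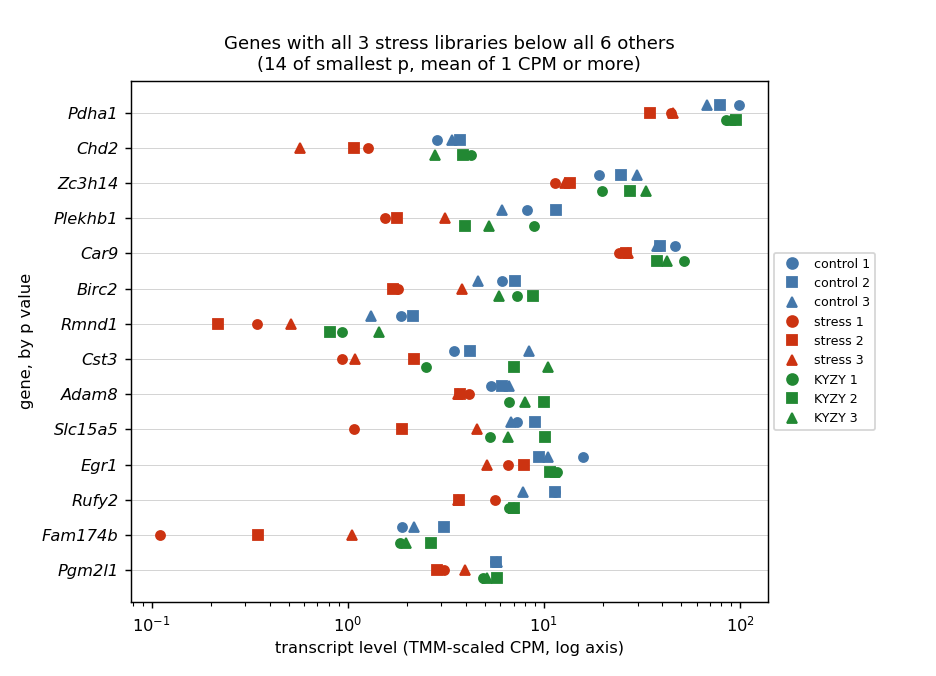
Level in TMM-scaled CPM (x, log axis) of the 14 genes lower in stress, 1 point per library, coloured by group with shape for the replicate number. In every row the 3 stress libraries lie left of the other 6, by definition; the gap is widest in Chd2 and narrowest in Cst3.

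Wfs1 and Caskin2 had the smallest p of the 14 higher genes. Wfs1, which encodes wolframin of the endoplasmic reticulum membrane (chromosome 5, 36966104 to 36988982), stood at 117, 127 and 118 CPM in stress 1, 2 and 3, at 81.4, 60.9 and 54.4 in control 1, 2 and 3, and at 77.6, 69.5 and 66.5 in KYZY 1, 2 and 3. The stress mean was 121 ± 5.65 CPM (SD, n = 3) against 68.4 ± 10.1 in the others (SD, n = 6), and the log2 fold change was 0.82 (SE 0.16), 0.88 against control and 0.76 against KYZY. It was the 1 member set apart of 36 endoplasmic reticulum stress genes, of which 18 were higher and 18 lower with a median of 0.00 and a mean of -0.15. Caskin2, a scaffold protein gene (chromosome 11, 115798987 to 115813658), stood at 79.5, 67.2 and 57.1 CPM in stress 1, 2 and 3, at 44.9, 31.6 and 21.5 in control 1, 2 and 3, and at 19.4, 15.3 and 21.3 in KYZY 1, 2 and 3. All 3 KYZY libraries of Caskin2 lay below all 3 controls, so that its difference was 1.06 against control and 1.86 against KYZY, with -0.81 (SE 0.27) for KYZY against control. The groups were therefore in 3 separate ranges, and Caskin2 did not hold 1 level in the 6 other libraries.

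Pde1b, a phosphodiesterase that hydrolyses cyclic nucleotides under calmodulin, was at 26.9, 27.3 and 21.0 CPM in stress and 12.9 to 17.1 in the others. Its log2 fold change was 0.68 (SE 0.16) against the 6 others, 0.68 against control and 0.68 against KYZY. Egfr, the receptor of epidermal growth factor, was at 24.0, 24.3 and 21.9 and 12.2 to 17.7 CPM, a log2 fold change of 0.67, or 0.62 against control. Nub1, which directs NEDD8 conjugates to the proteasome, had narrow groups: 74.6, 77.1 and 84.4 CPM in stress and 49.5 to 56.9 in the others, so that the log2 fold change was 0.54 (SE 0.13). Scml2, a Polycomb group protein gene, was at 66.4, 56.6 and 116 CPM in stress, where stress 3 stood highest, and 33.9 to 48.7 in the others. Fbxo38, an F-box subunit of a ubiquitin ligase, was at 81.1, 81.8 and 90.0 and 23.1 to 55.3 CPM. In the others its lowest libraries were control 3 and KYZY 3, at 25.8 and 23.1 CPM.

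Further higher genes were Mgme1, a nuclease that maintains mitochondrial DNA, at 9.71, 10.5 and 7.79 against 4.99 to 6.71 CPM, and Polr3f, a subunit of RNA polymerase III, at 36.5, 40.8 and 41.8 against 20.9 to 31.1. Vps13a, a bridge for lipid transfer between membranes, was at 117, 100.3 and 134 against 51.5 to 89.0 CPM. Lipo3, a lipase gene of a cluster of similar genes whose reads may be split among copies, was at 4.30, 5.48 and 8.16 against 1.41 to 3.83 CPM. Gal3st2c was at 9.14, 10.7 and 7.36 against 3.19 to 7.34 CPM, and Cyp4f39, a fatty acid hydroxylase, at 13.0, 10.9 and 10.5 against 5.24 to 10.2. In both genes KYZY 2 reached to just below the lowest stress library.

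**Figure D3:**
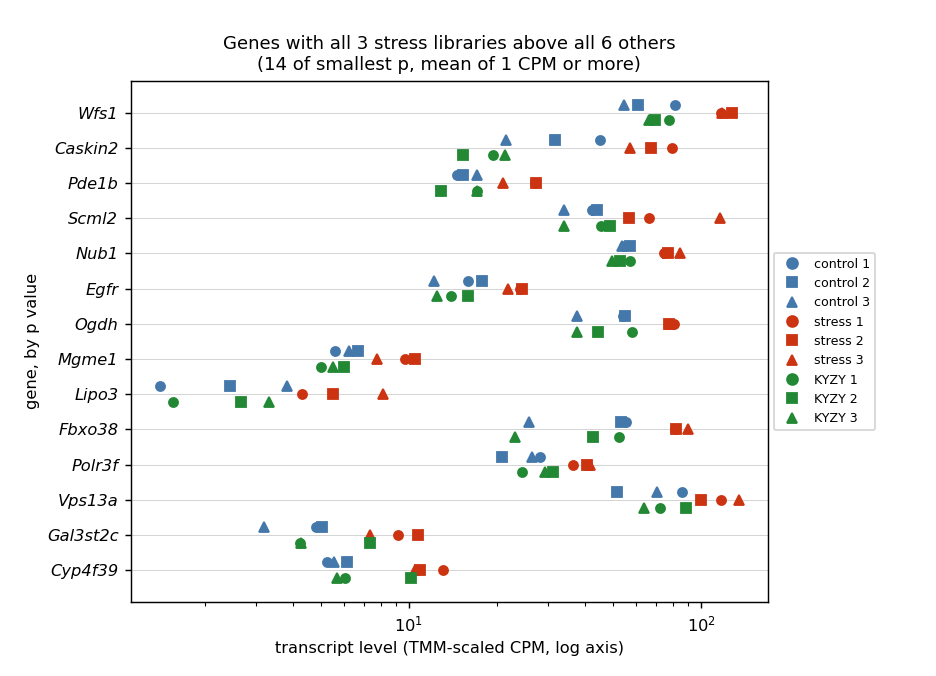
Level in TMM-scaled CPM (x, log axis) of the 14 genes higher in stress, 1 point per library, coloured by group with shape for the replicate number. The 3 stress libraries lie right of the other 6 by definition; Fbxo38 has the widest gap as a ratio, 1.47, and Gal3st2c the narrowest, 1.00.

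Which stress library stood nearest to the others varied. It was stress 1 in 42, stress 2 in 46 and stress 3 in 52 of the 140 lower genes, and in 44, 34 and 57 of the 135 higher genes. The nearest of the 6 others was least often control 3 on the lower side (11 genes) and KYZY 3 on the higher side (14 genes). The genes above had a median level of 11.7 CPM and those below 1.81, against 4.07 over all genes tested. Their longest annotated transcripts had medians of 4093 and 3056 bases, against 3332. On chromosome X lay 5.30% of the genes above and 3.60% of those below, against 3.44% of all.

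Some of these genes were neighbours. With coordinates of GRCm38.p6 and a window of 500 kb chosen after the values were seen, 21 of 132 placed genes above (15.9%) had another such gene nearby, while 9.78% of the other genes tested had 1 nearby. On the lower side it was 22 of 139 (15.8%) against 11.1%. Within 1000 kb the lower side gave 18.0% against 18.8%. Chd2 and Fam174b were the only tested genes in their span on chromosome 7 (73426652 to 73776919), and both were lower. Pgm2l1, Coa4 and Plekhb1 lay between 100227273 and 100662394 on the same chromosome, and of the 5 other tested genes there 3 were higher and 2 lower. Coa4, an assembly factor of cytochrome c oxidase chosen here for its position, was at 0.809, 0.532 and 0.652 CPM in stress and 0.910 to 2.15 in the others. On the higher side Mgme1 and Polr3f lay between 144270904 and 144541779 on chromosome 2.

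Members of the pathways of the oocyte were set apart singly. In autophagy 2 of 39 tested genes were above the others: Optn, an autophagy receptor, at 12.3, 11.3 and 16.0 CPM against 4.79 to 10.98, and Pik3c3, the lipid kinase that starts autophagosomes, at 13.3, 13.1 and 15.5 against 8.63 to 11.9. In egg activation and calcium it was 1 of 26, Micu2, a gatekeeper of the mitochondrial calcium uniporter, at 61.2, 53.5 and 74.1 against 22.6 to 47.3 CPM. In PI3K, mTOR and insulin signalling it was 2 of 36: Tsc2, an inhibitor of mTOR, at 16.7, 18.5 and 16.8 against 9.79 to 14.9 CPM, and Rps6kb2, a kinase under mTOR, at 3.21, 3.39 and 4.31 against 2.37 to 2.94. An inhibitor and a kinase of the same pathway thus both stood higher. In DNA damage response and repair it was 2 of 61: the mismatch repair gene Msh6 at 150.2, 169 and 184 against 123 to 147 CPM, and the recombination gene Xrcc2 at 9.28, 9.81 and 10.6 against 5.93 to 8.83. That list had 44 genes higher and 17 lower, a median of 0.15 and a median for KYZY against control of -0.19. Its median was 0.07 in stress against control, 0.09 without KYZY 3 and 0.03 without the 4 libraries of highest cumulus level. In meiosis and spindle, Pkmyt1, a kinase that inhibits Cdk1, was the 1 of 57, at 37.2, 36.5 and 36.6 against 27.1 to 35.8 CPM. The proteasome had 1 of 47 on each side, Psmd10 above and Psmb6 below. These counts stand beside the 0.972% above and 1.01% below of all genes tested, and the lists are too short to be called apart from those shares.

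Genes of the glucocorticoid response did not separate the groups. Nr3c1 stood at 7.80, 7.06 and 4.19 CPM in stress 1, 2 and 3, at 5.65, 6.98 and 5.38 in control 1, 2 and 3, and at 5.10, 7.15 and 5.81 in KYZY 1, 2 and 3, and the groups overlapped. Fkbp5, a target of the receptor, stood at 716, 742 and 739.8 CPM in stress 1, 2 and 3, at 711, 467 and 611 in control 1, 2 and 3, and at 847, 539 and 564 in KYZY 1, 2 and 3, and overlapped because KYZY 1 was the highest library. Of 29 genes of that list 9 were higher and 20 lower, 0 had an unadjusted p under 0.05, and the median was -0.10. The list's median was of opposite sign in stress against control (0.08) and without KYZY 2 (0.02). Heat shock and chaperone genes had 19 of 39 higher and a median of -0.03, which was 0.04 without stress 2. The maternal effect list had 31 of 44 higher and a median of 0.10, with 0 genes set apart. The oocyte markers gave 15 of 22 higher and a median of 0.10. Without the 4 libraries of highest cumulus level, the medians of both lists were of opposite sign, at -0.20 each.

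The lists of oxidative phosphorylation and cytosolic ribosomal proteins had low medians in stress, and few of their members separated the groups. Other lists for energy and translation had medians nearer 0. These were -0.09 for mitochondrial translation, -0.04 for the tricarboxylic acid cycle, -0.06 for fatty acid oxidation and lipid storage, and -0.30 for glycolysis and lactate. Of 73 nuclear genes of oxidative phosphorylation 66 were lower (median log2 fold change -0.65), and of 82 cytosolic ribosomal proteins 79 were lower, with a median of -1.15, against -0.03 over all genes. At an unadjusted p under 0.05 stood 6 of the 73 and 0 of the 82, and set apart was 1 of the 73, the complex I subunit gene Ndufb10, and 0 of the 82. Ndufb10 was at 0.147, 0.140 and 0.202 CPM in stress and 0.205 to 2.18 in the others. Cox7b, a cytochrome c oxidase subunit, had the smallest p of the first list and stood at 0.527, 1.25 and 0.574 CPM in stress 1, 2 and 3, at 1.88, 2.86 and 3.55 in control 1, 2 and 3, and at 1.03, 3.05 and 3.94 in KYZY 1, 2 and 3. KYZY 1 lay within the stress range, so the groups overlapped. Rpl15, a protein of the large ribosomal subunit, stood at 8.55, 13.1 and 15.7 CPM in stress 1, 2 and 3, at 11.1, 12.8 and 31.4 in control 1, 2 and 3, and at 13.6, 36.9 and 47.6 in KYZY 1, 2 and 3. Its high libraries were control 3, KYZY 2 and KYZY 3.

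The same 3 libraries were high over both lists. The level of oxidative phosphorylation, as mean log2(CPM + 1), was 2.37, 2.46 and 2.41 in stress 1, 2 and 3, 2.39, 2.42 and 3.21 in control 1, 2 and 3, and 2.38, 2.90 and 3.42 in KYZY 1, 2 and 3. The ribosomal level of the 3 stress libraries was 2.55, 3.76 and 3.46, that of the controls 2.72, 3.07 and 4.74, and that of the KYZY libraries 3.02, 4.64 and 5.38. Control 3, KYZY 2 and KYZY 3 were also the highest in cumulus markers, while stress 3, next to them in cumulus markers, stood below all 3 in both lists. Without the 4 libraries the medians were 0.01 for oxidative phosphorylation and 0.36 for ribosomal proteins, both of opposite sign to those over all 9. Against control alone the medians were -0.40 and -0.67, and against KYZY alone -0.81 and -1.50. Antioxidant defence genes had 30 of 41 lower and a median of -0.36, and -0.03 without the 4 libraries. Apoptosis genes had 23 of 33 lower and a median of -0.23, and -0.17 without them. In bulk samples of this kind, fewer cells of a type and less RNA per cell cannot be told apart.

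Markers of other cells gave low medians in stress against the 6 others as well. They were -0.95 over 26 cumulus and granulosa markers, -1.65 over 12 of oviduct epithelium, -1.56 over 12 of blood and immune cells and -1.49 over 20 of stroma and endothelium. The cumulus median was of opposite sign in stress against control, at 0.37, with -1.71 against KYZY and 1.95 for KYZY against control. In the same order these were -1.03, -1.89 and 0.09 for oviduct epithelium, -0.48, -2.05 and 2.29 for blood and immune cells, and -0.79, -1.82 and 0.29 for stroma and endothelium. Leaving out 1 library moved the cumulus median from -3.61 (without stress 3) to -0.38 (without KYZY 2). It moved that of oviduct epithelium from -2.35 (without stress 2) to -0.94 (without KYZY 3), that of blood and immune cells from -2.87 (without stress 3) to -1.19 (without KYZY 2), and that of stroma and endothelium from -1.75 (without stress 3) to -1.02 (without KYZY 2). Summed levels overlapped: those of cumulus markers ran from 698 to 1436 CPM in stress and 622 to 1800.2 in the others, and those of immune markers from 12.0 to 17.9 and from 3.19 to 90.9 CPM. The cumulus sums say little about most of these markers. Serpine2 and Sdc1 alone gave 505 and 173 of 698 CPM in stress 1, and 494 and 227 of 745 in control 1. Both libraries had 23 of 34 cumulus markers at 0. Without the 4 libraries the medians were -0.06, 0.38, 1.93 and 0.64. The part of these cells in the oxidative phosphorylation and ribosomal lists was not tested beyond these values. Cyp19a1, the aromatase of granulosa cells, was the 1 marker of the 26 set apart, at 9.19, 2.80 and 6.83 CPM in stress and 10.1 to 11.8 in the others. It kept to that narrow range in the 6 others while their cumulus level, as mean log2(CPM + 1), ran from 1.00 to 3.01. Among these libraries Cyp19a1 therefore did not follow the cumulus level, and why it was lower in stress was not tested.

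**Figure D4:**
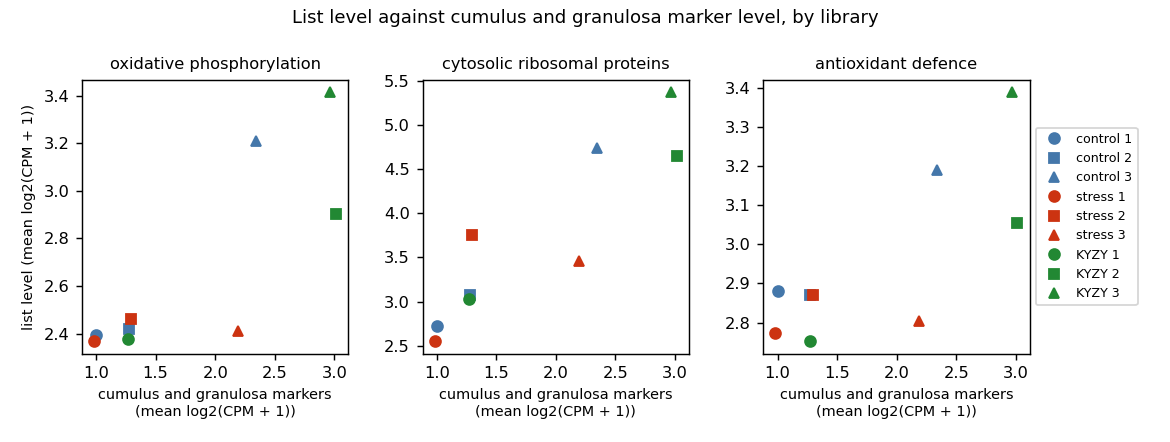
Level of 3 gene lists (y) against the cumulus and granulosa marker level (x), each as mean log2(CPM + 1) over the members tested, 1 point per library. Control 3, KYZY 2 and KYZY 3 are high on both axes, and stress 3, next to them on the x axis, lies below them on the y axis in all 3 lists.

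**Figure D5:**
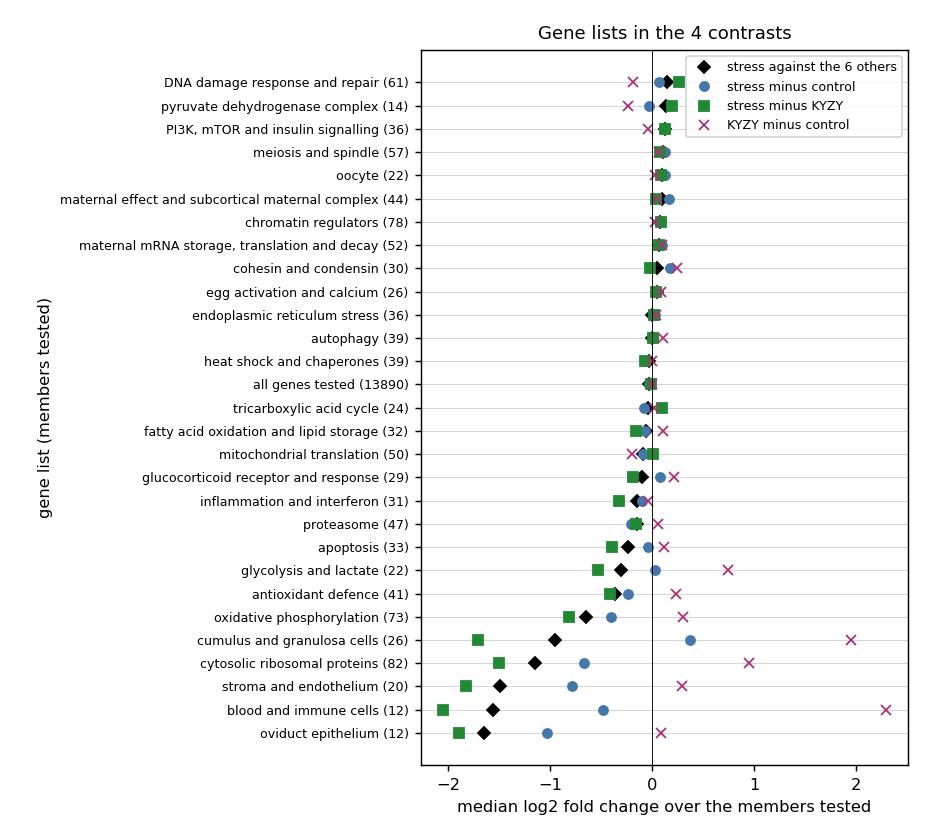
Median log2 fold change (x) of each gene list, with the number of members tested, in stress against the 6 others and in the 3 contrasts between groups. The contrasts share libraries; lists of other cell types, ribosomal proteins and oxidative phosphorylation lie lowest for stress against the 6 others.

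A few transcripts were at 0 in one side and present in every library of the other. Detected in all 6 others and at 0 in all 3 stress libraries were 4 of the 24736 genes listed: E2f3, Cldn34d, Kcnrg and Grik3. E2f3, a transcription factor of the cell cycle, had counts of 16, 36 and 33 in control 1, 2 and 3 and 20, 13 and 9 in KYZY 1, 2 and 3. Its mean in the others was 6.26 times a floor of 12 counts (3 read pairs) taken over the stress group. Cldn34d, a claudin gene, was at 0.0947 to 0.479 CPM in the 6 others, with a mean 6.14 times the floor. For Kcnrg and Grik3 the mean was 5.31 and 4.48 times the floor, and Grik3 had counts of only 6, 5 and 4 in control 3, KYZY 1 and KYZY 2. The highest level of any of the 4 in a library was 0.487 CPM, so that few read pairs lie behind them. The floor covers counting error on the side at 0 only, not in the mean of the other side. The genes were picked for this pattern, so these ratios are no lower bounds and add no support. The reverse held for 7 of the 24736 genes, none of which passed the filter on low counts. Of these Spdya, an activator of cyclin-dependent kinases in meiosis, had the highest level. Its counts were 14, 6 and 20 in stress 1, 2 and 3 and 0 in all others. The stress mean was 6.27 times a floor of 12 counts over the 6 others.

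Stress 1 and stress 2 stood apart together in further genes where stress 3 lay within the range of the others, named after their values were seen. Btn1a1, a butyrophilin of milk fat globules, stood at 51.2, 51.9 and 0.0931 CPM in stress 1, 2 and 3, at 0.165, 0 and 0 in control 1, 2 and 3, and at 0.0947, 0.0881 and 0 in KYZY 1, 2 and 3. Its fitted log2 fold change of 9.25 rests on 2 libraries. Strap, an RNA-binding component of the SMN complex, was at 12.5, 13.1 and 33.3 CPM in stress 1, 2 and 3 and 32.7 to 48.4 in the others. Dera, a deoxyribose-phosphate aldolase gene 2.65 kb from Strap on chromosome 6, was at 35.5, 42.9 and 14.8 CPM and 2.04 to 15.5 in the others, high where Strap was low. Of the others only KYZY 1, at 15.5 CPM, passed stress 3 in Dera, and the next was control 3 at 6.73. Mmp24, a membrane metalloprotease gene, was at 1.09, 1.28 and 5.91 CPM against 4.57 to 10.0, and Cep250, a centrosomal linker gene 138 kb from it on chromosome 2, at 2.17, 2.28 and 6.86 against 5.59 to 12.6. Parp12, an ADP-ribosyltransferase, differed from these: it was set apart on the lower side with a wide stress group, in which stress 3 was lowest. It stood at 3354, 2769 and 1148 CPM in stress 1, 2 and 3. The values were 4859.5, 3934 and 4034 in control 1, 2 and 3, and 4131, 4263 and 4108 in KYZY 1, 2 and 3.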

How the data were processed

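The authors deposited 1 table per library with estimated counts, whole numbers per gene symbol with no normalization. No table names the unit, which was taken from the values; about 4 units appeared to stand for 1 read pair. Per the submitters' processing notes the tools were StringTie, HISAT2, Trim Galore, bcl2fastq 2.20 and DESeq2, on the builds GRCm38 and mm10, without roles or settings. Per the labels' protocols, cDNA was made with SMART-Seq v4 and cut with Tn5, without strand or molecular identifiers, so amplified reads are not independent molecules.

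The main test was that of edgeR 4.0.16 in R 4.3.3 (TMM, filterByExpr with a minimum count of 10 and total of 15, robust quasi-likelihood F test, 2-sided). This kept 13890 genes with 99.9832% of counts. The 6 control and KYZY libraries formed 1 group, with 7 residual degrees of freedom and a common biological coefficient of variation of 0.609. Contrasts between groups came from a fit of 3 means. Benjamini-Hochberg adjustment ran over all genes tested, at a threshold of 0.05. DESeq2 1.42.0 and limma 3.58.1 (voom with library weights) were alternatives. Single values per library were compared by exact permutation over 84 choices of 3 libraries, whose smallest p is 0.0238. Of 24736 symbols, 24076 had a RefSeq GRCm38.p6 entry, used for coordinates and promoters.

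The genes described, the 28 gene lists and the tests were chosen with earlier results of these data known. Named were the 14 genes of smallest p on each side whose stress libraries did not overlap the others, with a mean of 1 CPM or more and no predicted symbol, genes at 0 on 1 side only, the member of highest level or smallest p of each list, and a few core genes. Genes outside this rule, among them list members set apart and genes called under an alternative, were chosen after their values were seen.

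Replicate numbers are shared by the groups. Deviations from the group means of same-numbered control and stress libraries correlated at 0.31, 0.18 and 0.35, each over 0.1, so the numbers were taken to pair control with stress, although control 2 correlated better with stress 1 (0.23) than with stress 2; a fit of those 6 libraries, with that number as a replicate block, called 1 gene, Mettl7a1, against 0 without it. The pairs with KYZY did not all correlate (control 2 with KYZY 2, -0.14; stress 2 with KYZY 2, -0.15).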

Additional observations from a re-analysis of the deposited data

Results flagged for a closer look

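Among the 28 genes described first, 2 had 1 library far from the rest of the 6 others, by a test of the gap to the nearest library over the range. Chance flags about 1 in 20 groups. Cyp4f39 was at 10.2 CPM in KYZY 2, just under the lowest stress library at 10.5 CPM, while the other 5 of the 6 ran from 5.24 to 6.11. Egr1 was at 15.9 CPM in control 1, farther from stress than the other 5.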

How the results depend on the processing

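The edgeR count of 0 genes in stress against the 6 others stayed at 0 with a stricter filter, no filter, other size factors, counts divided by 4, the cumulus level as a covariate, 3 group means or the control and stress libraries alone. DESeq2 called 33 and limma voom 9, of which 12 and 5 are among the 28, themselves chosen by p in these same libraries. Without the 4 libraries of high cumulus level, 57 were called (33 higher, 24 lower, 4 of the 28), with 2 stress libraries against 3. With the replicate block 1 was called, Btn1a1; leaving out 1 library gave 0 to 5 calls, 5 without stress 3 (Cd160, Stk32a, Zfp345, Btn1a1 and Strap). The numbers do not pair the 9 libraries: control 2, for 1, correlated better with KYZY 1 (0.32) than with KYZY 2 (-0.14). Stress against control gave 22 genes by DESeq2, 1 (Mettl7a1) with the replicate block in 6 libraries and 0 to 2 leaving out 1 library (Kcng2 and Vwa5a without control 3). Stress against KYZY gave 12 by DESeq2 and 0 to 1 (Prr18 without control 3), and KYZY against control gave 4 and 0 to 3 (Prr18, Kcng2 and Vwa5a without control 3). The block called 0 genes in the other fits of 9 libraries. Where DESeq2, voom and edgeR differ, the cause was not tested. About 4 units for 1 read pair limits genes under 0.245 CPM, the highest floor of a library.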

Other observations

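In several genes called when stress 3 was left out, stress 1 and stress 2 stood together and stress 3 did not share their low level. Cd160, a receptor of lymphocytes, was at 10.5, 9.85 and 48.8 CPM in stress 1, 2 and 3 and 35.2 to 49.0 in the others. Zfp345, a zinc finger gene, was at 5.32, 4.81 and 57.7 and 23.9 to 45.5 CPM, and Stk32a, a kinase gene, at 0.356, 0.497 and 17.8 and 8.10 to 21.5 CPM. Slc15a5, low in stress 1 and stress 2, lies 146 kb from Dera on chromosome 6, where Strap is also found. Pabpn1l, a poly(A)-binding protein of the oocyte, was at 1456, 1751 and 634 CPM against 557 to 870.2, so stress 3 lay within the others.

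Other genes split the control and KYZY libraries among themselves. Prr18 was high in control 1 and 2 but not control 3 (17.2, 24.7 and 0.0781 CPM), at 18.2, 20.3 and 6.84 CPM in the stress libraries, and at 0.253, 0.235 and 0.163 CPM in the KYZY libraries. Kcng2, a potassium channel subunit, was at 0, 0 and 11.5 CPM in the controls, at 15.5, 19.5 and 14.3 CPM with stress and at 12.8, 26.0 and 9.59 CPM with KYZY, so control 1 and control 2 alone were at 0. Mettl7a1, a methyltransferase, was at 2.53, 2.62 and 4.39 CPM with stress, at 18.4, 12.0 and 30.8 CPM in the controls and at 4.83, 2.73 and 27.3 CPM with KYZY, where KYZY 1 and KYZY 2 lay near stress.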
